A study of Mus musculus with 6 samples.

Results

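The genes described here are 10 transcripts of the actin cytoskeleton in induced T cells: the cytoplasmic actins Actb and Actg1, the beta-thymosins Tmsb4x and Tmsb10, the monomer- and filament-binding proteins Pfn1, Cfl1, Coro1a, Lcp1 and Arpc1b, and the intermediate filament gene Vim. They were taken by name from a table of 23420 gene rows, and all 10 were listed above 1 TPM in every library. TPM, the unit of the table, is a length-scaled share of a library's transcripts, so levels can be set side by side between genes. The data are polyA RNA of induced T cells (iT cells) from the spleen, with 3 libraries of CD4 single-positive (CD4SP) cells and 3 of CD8 single-positive (CD8SP) cells, each from an aliquot of 1000 sorted cells.

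Both populations shared one origin. Per the study's methods, hematopoietic progenitors were derived from mouse embryonic stem cells of C57BL/6 background that carry a doxycycline-inducible Runx1-p2a-Hoxa9 cassette at the Rosa26 locus. Doxycycline was given in culture while the progenitors formed and matured. The progenitors were transplanted into irradiated young adult B-NDG mice, a strain without T, B and NK cells of its own. The study describes this transplantation as done without doxycycline, and does not state it separately for the mice sequenced here. There was no untreated, unedited or wild-type T cell library among the samples, so a level here has no natural counterpart beside it. The study itself compared its iT cells with published natural CD4SP and CD8SP T cells, whose data were not used here. The labels do not say whether same-numbered CD4SP and CD8SP libraries came from one mouse or whether the 3 libraries of a population came from separate mice, so the p-values measure only the spread between these libraries.

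The identity of the sorted cells was checked on marker genes. Cd4 was listed at 279 to 331 TPM in the CD4SP libraries and at 0 to 0.104 TPM in the CD8SP libraries, and Cd8a at 0.319 to 2.93 TPM against 1038 to 1161 TPM. Cd8b1 was listed at 24.3 to 36.0 TPM in the CD4SP libraries, against 2197 to 2401 TPM in the CD8SP libraries. The T cell genes Cd3d, Cd3e, Cd3g, Cd247 and Lck summed to 3617 to 4472 TPM over all libraries. The deposited values carry no depth, and every library summed to about 998000 TPM. Ribosomal protein genes took 24.5 to 29.4% of TPM in the CD4SP libraries and 32.6 to 36.4% in the CD8SP libraries. The median tested gene was 0.28 higher in CD4SP on the log2 scale, and 0.14 higher with ribosomal protein genes left out. CD8SP replicates 1 and 2 were close to each other: none of the 10 genes differed between them by more than 0.065 on the log2 scale. In CD4SP replicate 2 the deviation of a gene from its population mean fell with transcript length (Spearman correlation across 9853 genes, which are not independent replicates, -0.17, against -0.045 to 0.12 in the other libraries).

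Actin exists as free monomers and as filaments that grow and shrink at their ends. Beta-thymosins hold monomers in reserve, profilin recharges monomers and hands them to growing ends, cofilin severs and dismantles old filaments, the Arp2/3 complex starts branches, coronins act at the Arp2/3 complex and on cofilin, and plastins bundle filaments. In T cells this turnover drives crawling, the reshaping of the contact with an antigen-presenting cell and the positioning of receptors, while vimentin filaments give the cell much of its stiffness.

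Some of the 10 genes are close relatives, and the coding sequences of the actin pair and the thymosin pair are shown because the comparison within a pair depends on reads being told apart. The first 90 coding bases of Actb (exon 2, chr5:142905597-142905686, minus strand) and Actg1 (exon 2, chr11:120348002-120348091, minus strand) differ at 16 bases, printed in capitals. The whole 132-base coding regions of Tmsb4x (exons 2 to 3, chrX:167207504-167208036, minus strand) and Tmsb10 (exons 1 to 2, chr6:72957621-72958012, minus strand) differ at 40 (the stop codon is left out). All coordinates are on GRCm38, the assembly also called mm10, and the sequences come from the GENCODE transcripts.
Actb: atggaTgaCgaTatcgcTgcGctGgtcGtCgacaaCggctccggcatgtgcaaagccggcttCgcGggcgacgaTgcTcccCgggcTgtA
Actg1: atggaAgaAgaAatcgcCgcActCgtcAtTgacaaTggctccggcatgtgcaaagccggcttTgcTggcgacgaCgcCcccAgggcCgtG
Tmsb4x: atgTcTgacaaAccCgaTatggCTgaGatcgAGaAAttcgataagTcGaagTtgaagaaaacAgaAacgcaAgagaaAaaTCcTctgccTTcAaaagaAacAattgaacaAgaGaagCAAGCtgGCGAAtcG
Tmsb10: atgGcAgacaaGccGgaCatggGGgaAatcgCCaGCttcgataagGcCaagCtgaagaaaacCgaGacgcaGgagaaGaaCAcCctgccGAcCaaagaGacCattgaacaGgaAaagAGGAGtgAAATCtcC

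Over the 1125 coding bases, Actb and Actg1 were 88.6% identical and their longest identical run was 62 bases, whereas the thymosin pair was 69.7% identical with a longest run of 10 bases. A search of the annotated mouse transcripts for copies of at least 95% identity over at least 200 bases found none for Actb, Tmsb4x, Pfn1, Coro1a or Vim. Actg1 had 5 processed pseudogenes at 95.6 to 99.6% identity. Tmsb10 matched Gm9844 at 99.0% over 413 bases, Arpc1b matched the pseudogene Gm5637 at 96.5% over 1131 bases, and Lcp1 matched a stretch of Gm15628 at 99.7% over 314 bases. Cfl1 matched the pseudogene Gm6180 at 98.8% over 498 bases and overlaps a transcript of Snx32 for 354 bases. None of these pseudogenes, nor Gm9844 or Gm15628, had a row of its own in the table, and how reads shared with them were counted is not given in the sources used here, so the levels of Actg1, Tmsb10, Arpc1b, Cfl1 and Lcp1 are uncertain in that respect.

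The 10 genes spanned about 2 orders of magnitude, and the 6 most abundant stood in the same order in both populations. Together they made up 2.48, 2.64 and 2.68% of all TPM in the CD4SP libraries and 2.06, 2.05 and 1.98% in the CD8SP libraries, so the populations did not overlap. The mean share was 2.60 ± 0.104% (SD, n = 3) in CD4SP and 2.03 ± 0.0467% (SD, n = 3) in CD8SP, a difference of 0.567 percentage points and a ratio of 1.28. With ribosomal protein genes taken out of the total, the shares were 3.28 to 3.73% against 3.03 to 3.11%, still without overlap, and the ratio of the means was 1.15. The part of the ribosomal share in this difference cannot be told apart from that of the 10 genes in values that are shares of one total, and in bulk samples fewer cells of a type and less RNA per cell cannot be told apart either. Tmsb4x alone supplied 38.1 to 51.4% of the summed level in CD4SP and 42.8 to 45.8% in CD8SP. In each library 8 of the 10 genes were among the 500 most abundant; Arpc1b and Pfn1 were the exceptions.

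**Figure D1:**
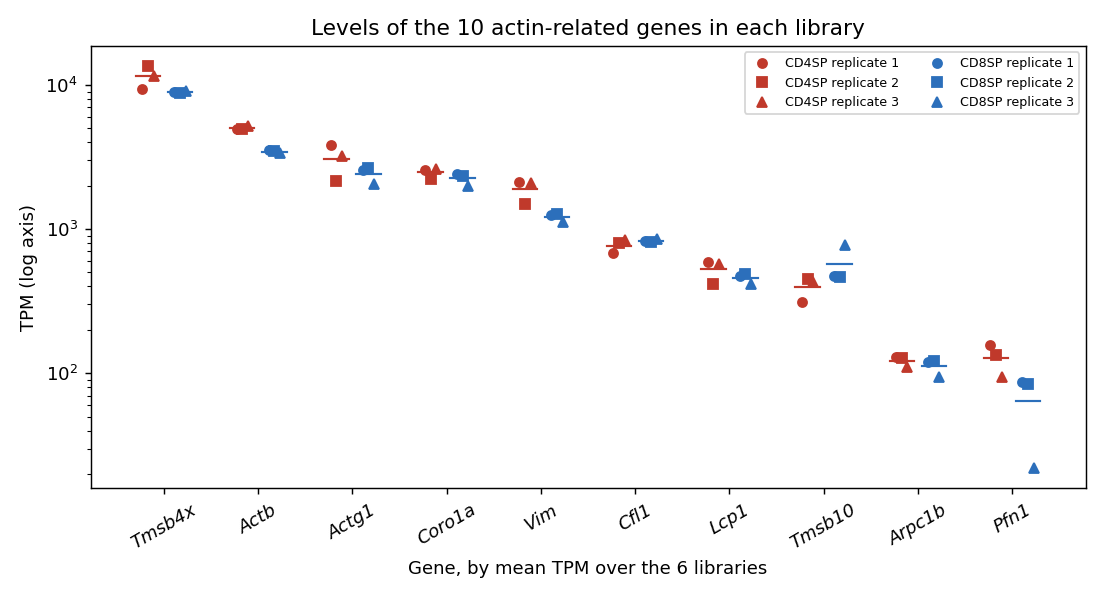
TPM of the 10 genes in each library, on a log axis, with genes ordered by their mean over the 6 libraries. Points are single libraries (red CD4SP, blue CD8SP, shape gives the replicate) and short bars are population means. Tmsb4x stood highest with 8732 to 13515 TPM, and the lowest point, 21.9 TPM, was Pfn1 in CD8SP replicate 3.

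The order by mean TPM in CD4SP was Tmsb4x, Actb, Actg1, Coro1a, Vim, Cfl1, Lcp1, Tmsb10, Pfn1 and Arpc1b. Neighbours whose libraries overlapped there were Actg1 with Coro1a, Lcp1 with Tmsb10, and Pfn1 with Arpc1b; every other neighbouring pair was separated. In CD8SP the order was the same down to Cfl1, followed by Tmsb10, Lcp1, Arpc1b and Pfn1, with overlap between Actg1 and Coro1a and between Tmsb10 and Lcp1.

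CD4SP was then compared with CD8SP by limma on log2(TPM + 1) over all 10476 genes with at least 1 TPM in 3 or more libraries. Log2 differences are CD4SP minus CD8SP, and on this scale they understate the change of low genes. A gene was called at a Benjamini-Hochberg adjusted p under 0.05 with more than a 2-fold difference. None of the 10 genes was called (0 of 10), where 9.73% of all tested genes were called in either direction and 7.92% were called higher in CD4SP. At an unadjusted p under 0.05 in limma, 4 of the 10 stood higher in CD4SP and none (0) in CD8SP, beside 31.4% and 5.69% of all tested genes. At the adjusted p alone, Actb and Vim passed as higher in CD4SP and 0 as higher in CD8SP, beside 17.6% and 3.23% of all tested genes, so 2 of 10 lies near the background. All 3 CD4SP libraries stood above all 3 CD8SP libraries for 4 of the genes (Actb, Tmsb4x, Pfn1, Vim), beside 36.6% of all tested genes, and the reverse held for 1 (Tmsb10), beside 6.61%. The median log2 difference of the 10 genes was 0.25, beside 0.28 over all tested genes.

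**Figure D2:**
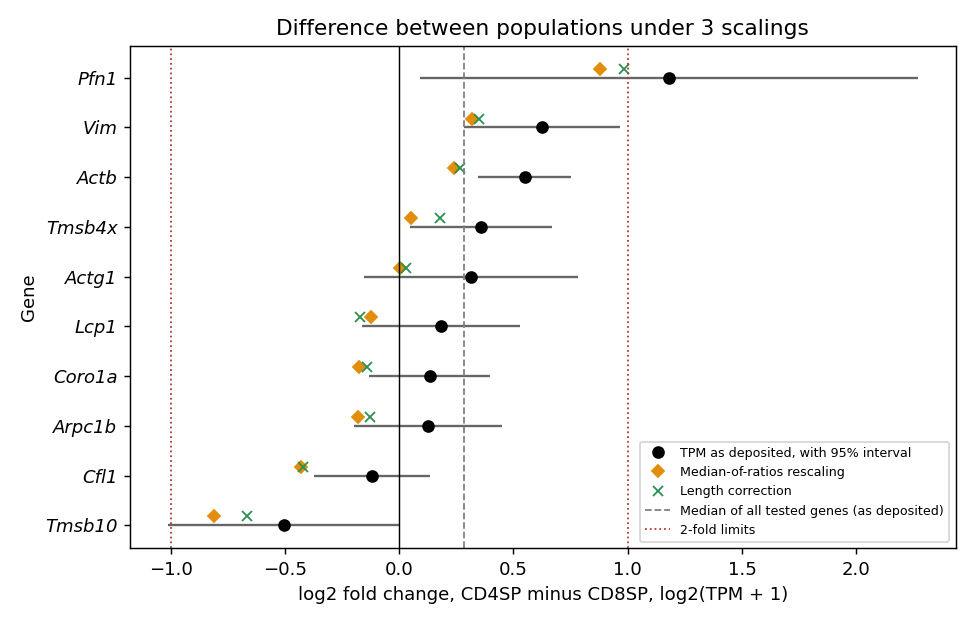
Log2 difference (CD4SP minus CD8SP, log2(TPM + 1)) of each gene with its 95% interval from limma as black points and lines. Diamonds and crosses give the difference after median-of-ratios rescaling and after a correction for transcript length, the dashed line is the median of all tested genes (0.28), and dotted lines mark 2-fold. Pfn1 had the highest value and the widest interval, and Tmsb10 the lowest value under each of the 3 scalings.

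Actb (chr5:142903115-142906754, minus strand), which encodes beta-actin and is widely used as a reference transcript, was listed at 4949, 4967 and 5167 TPM in CD4SP and at 3511, 3455 and 3348 TPM in CD8SP. The libraries of a population lay within a few percent of each other and the populations did not overlap. The level was 5028 ± 121 TPM against 3438 ± 82.9 TPM (SD, n = 3 each), a log2 difference of 0.55 (SE 0.090, 95% interval 0.34 to 0.75, adjusted p = 0.0045), or 1.46-fold. This was 0.26 above the median of all tested genes. Rescaled by median of ratios, the log2 difference was 0.24 (adjusted p = 0.246), and corrected for transcript length it was 0.27 (adjusted p = 0.118), so that the call at the adjusted p alone was lost under both. It was 0.82 after quantile normalization (adjusted p = 0.0023).

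Actg1 (chr11:120345690-120348542, minus strand), which encodes gamma-actin, was listed at 3829, 2172 and 3219 TPM in CD4SP and at 2579, 2650 and 2045 TPM in CD8SP. CD4SP replicate 2 lay among the CD8SP libraries while the other two CD4SP libraries lay above them. On the log2 scale Actg1 differed by 0.31 (95% interval -0.16 to 0.78, adjusted p = 0.299), which missed the threshold. The value was 0.54 without CD4SP replicate 2 (adjusted p = 0.0287), 0.13 without CD4SP replicate 1, 0.19 without CD8SP replicate 3 and 0.0049 under median-of-ratios rescaling.

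Neither thymosin gene passed the test. Tmsb4x (chrX:167207093-167209315, minus strand), which encodes thymosin beta-4, the main monomer-holding peptide of many blood cells, was listed at 9429, 13515 and 11567 TPM in CD4SP. In CD8SP it was listed at 8860, 8732 and 9037 TPM, a much narrower range that lay wholly under the CD4SP libraries. The log2 difference was 0.36 (95% interval 0.048 to 0.67, adjusted p = 0.0948). It was 0.49 without CD4SP replicate 1 (adjusted p = 0.0308), 0.23 without CD4SP replicate 2 (adjusted p = 0.112) and 0.051 under median-of-ratios rescaling.

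Tmsb10 (chr6:72957347-72958748, minus strand), which encodes thymosin beta-10, was listed at 311, 450 and 428 TPM in CD4SP and at 473, 466 and 779 TPM in CD8SP. Each CD8SP library was above each CD4SP library, although CD8SP replicates 1 and 2 exceeded the highest CD4SP library only narrowly. The log2 difference was -0.50 (95% interval -1.01 to 0.0042, adjusted p = 0.137), and it was -0.26 without CD8SP replicate 3, -0.81 under median-of-ratios rescaling and -0.67 after length correction.

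A ratio of 2 genes within a library does not move with the library's scaling. The ratio of Tmsb4x to Tmsb10, the pair shown above by sequence, was 30.3, 30.03 and 27.0 in CD4SP and 18.8, 18.7 and 11.6 in CD8SP. The populations did not overlap, and the mean log2 ratio was 0.86 higher in CD4SP (4.86 ± 0.092 against 3.997 ± 0.399, SD, n = 3 each; exact two-sided permutation p = 0.1, adjusted over 3 ratios p = 0.3). With 3 libraries against 3, 0.1 is the smallest p this test can give. The difference was 0.63 without CD8SP replicate 3.

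The ratio of Actb to Actg1 was 1.29, 2.29 and 1.61 in CD4SP and 1.36, 1.304 and 1.64 in CD8SP. The populations overlapped, and the log2 difference of 0.24 had an exact two-sided permutation p of 0.7 (n = 3 each). It was 0.013 without CD4SP replicate 2 and 0.42 without CD4SP replicate 1. Beta-actin transcripts exceeded gamma-actin transcripts in each of the 6 libraries.

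**Figure D3:**
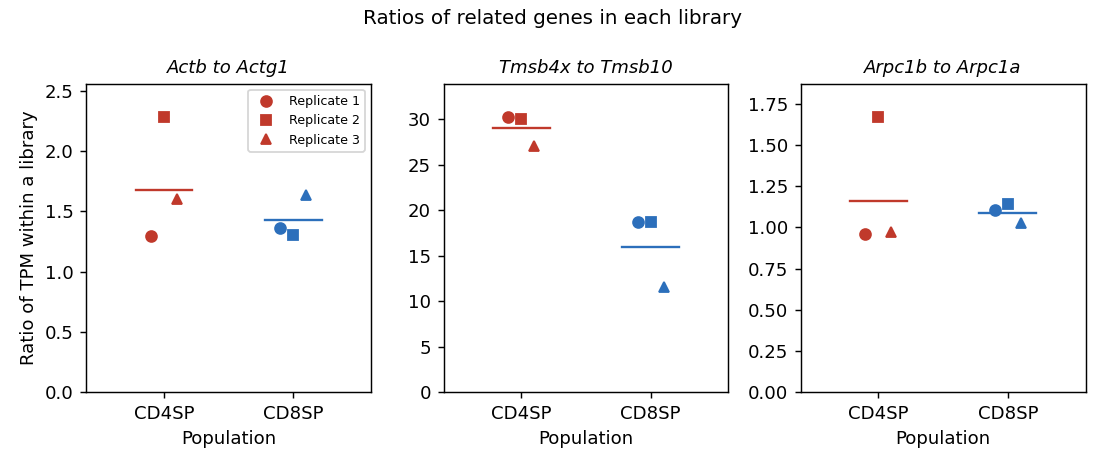
Ratio of TPM within each library for 3 pairs of related genes, with CD4SP in red and CD8SP in blue. Points are libraries, bars are geometric means, and each axis starts at 0. In the Tmsb4x to Tmsb10 panel the CD4SP libraries lie at 27.0 to 30.3 and the CD8SP libraries at 11.6 to 18.8, while the populations overlap in the other panels.

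Pfn1 (chr11:70651850-70654644, minus strand), which encodes profilin 1, was listed at 156, 134 and 93.6 TPM in CD4SP and at 87.7, 83.8 and 21.9 TPM in CD8SP. CD8SP replicate 3 was far under the other libraries, and the lowest CD4SP library was only a little above the highest CD8SP library. The log2 difference was 1.18 (SE 0.477, 95% interval 0.089 to 2.27, adjusted p = 0.112), the highest of the 10 genes. It was 0.54 without CD8SP replicate 3 and 0.61 in a fit that weighted the libraries. In both settings Vim stood higher, at 0.57 and 0.69. Pfn1 was above its relative Pfn2 (4.02 to 13.1 TPM) and far under Tmsb4x and Cfl1. The annotation and the assignment of multi-mapping reads are not given in the sources used here, and their part in the listed level of Pfn1 was not tested.

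Cfl1 (chr19:5490455-5495201, plus strand), which encodes the non-muscle cofilin, was listed at 678, 795 and 834 TPM in CD4SP and at 830, 811 and 857 TPM in CD8SP. The populations overlapped. Cfl1 had a log2 difference of -0.12 (95% interval -0.37 to 0.13, adjusted p = 0.458), and it ran from -0.43 under median-of-ratios rescaling to -0.032 without CD4SP replicate 1.

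Coro1a (chr7:126699773-126707787, minus strand), which encodes the coronin of blood cells, was listed at 2551, 2243 and 2625 TPM in CD4SP and at 2424, 2349 and 2003 TPM in CD8SP. The populations overlapped and the level varied little, with a coefficient of variation of 8.20% in CD4SP and 9.95% in CD8SP. The log2 difference was 0.13 (95% interval -0.13 to 0.40, adjusted p = 0.433), and it was 0.048 without CD8SP replicate 3, 0.20 without CD4SP replicate 2 and -0.18 under median-of-ratios rescaling.

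Lcp1 (chr14:75131101-75230842, plus strand), which encodes L-plastin, the filament bundler of leukocytes, was listed at 588, 416 and 575 TPM in CD4SP and at 472, 486 and 418 TPM in CD8SP. CD4SP replicate 2 was the lowest of all 6 libraries and the other two CD4SP libraries the highest. Lcp1 had a log2 difference of 0.18 (95% interval -0.16 to 0.53, adjusted p = 0.402). It was 0.34 without CD4SP replicate 2 (adjusted p = 0.0359), 0.096 without CD4SP replicate 1, 0.11 without CD4SP replicate 3, 0.12 without CD8SP replicate 3 and -0.12 under median-of-ratios rescaling.

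Arpc1b (chr5:145114215-145130705, plus strand), a subunit of the Arp2/3 complex, was listed at 129, 127 and 110 TPM in CD4SP and at 119, 122 and 94.8 TPM in CD8SP. The populations overlapped, with a log2 difference of 0.13 (95% interval -0.20 to 0.45, adjusted p = 0.547) that was 0.011 without CD8SP replicate 3, 0.20 without CD4SP replicate 3 and -0.18 under median-of-ratios rescaling. Its ratio to the alternative subunit Arpc1a was 0.959, 1.67 and 0.973 in CD4SP and 1.11, 1.14 and 1.03 in CD8SP. CD4SP replicate 2 was the highest of the 6 and the other two CD4SP libraries were the lowest. The log2 difference of the ratio was 0.089 (exact two-sided permutation p = 1.0, n = 3 each), and it was -0.18 without CD4SP replicate 2.

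Vim (chr2:13573927-13582826, plus strand), which encodes vimentin, was listed at 2105, 1485 and 2078 TPM in CD4SP and at 1243, 1271 and 1120 TPM in CD8SP. CD4SP replicate 2 was the closest to the CD8SP libraries, yet the populations did not overlap. The level was 1889 ± 351 TPM against 1211 ± 80.6 TPM (SD, n = 3 each), a log2 difference of 0.62 (SE 0.149, 95% interval 0.28 to 0.96, adjusted p = 0.0214), or 1.54-fold. The adjusted p was 0.0549 to 0.0798 when any one library other than CD4SP replicate 2 was left out. In those settings the log2 difference was 0.54 to 0.66, near the value with all libraries. The adjusted p was 0.00207 without CD4SP replicate 2, and 0.0984 under median-of-ratios rescaling, where the log2 difference was 0.32.

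The genes differed in how they varied inside a population. In CD4SP replicate 2, Actg1 (-0.46), Vim (-0.33), Lcp1 (-0.32) and Coro1a (-0.14) were under their population's mean log2 level while Tmsb4x (0.25) and Tmsb10 (0.20) were above it. The first 4 have annotated transcripts of 1747 to 3841 bases and the thymosins of 690 and 768 bases, but Actb, with 1920 bases, deviated by only -0.017 there and Cfl1, with 2354 bases, by 0.053. Pfn1 (861 bases, 0.096) and Arpc1b (1394 bases, 0.061) were slightly above their means, and the part of length in these deviations was not tested. In CD8SP replicate 3, Pfn1 (-1.28) and Tmsb10 (0.49) deviated the most.

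The rest of the cytoskeleton was described from lists of 137 gene names, of which 132 were in the table and 101 were tested. Mkl1 and Mkl2 were also entered under their other names, Mrtfa and Mrtfb, which had no row. Of these 101, 10 were called higher in CD4SP (9.90%, beside 7.92% of all tested genes) and 0 higher in CD8SP. Limk2, a kinase that acts on cofilin, had a log2 difference of -1.49 (5.76, 4.36 and 5.82 TPM in CD4SP, 27.1, 5.62 and 28.7 TPM in CD8SP; adjusted p = 0.0757) and was called higher in CD8SP without CD8SP replicate 2 and with CD8SP replicates 1 and 2 averaged. At the adjusted p alone 28 were higher in CD4SP (27.7%, beside 17.6%) and 1, the myosin gene Myo1f, was higher in CD8SP (log2 difference -0.48, adjusted p = 0.0472). CD4SP stood wholly above CD8SP for 48 of them (47.5%, beside 36.6%) and wholly under it for 4 (3.96%, beside 6.61%). Their median log2 difference was 0.34, beside 0.28 over all tested genes. Over all tested genes, 81.5% of the calls were higher in CD4SP with TPM as deposited, and 61.9% when rescaled by median of ratios, 57.1% when quantile-normalized and 58.9% when corrected for length.

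Capping and severing proteins end or cut filaments, and 2 of the 8 tested were called higher in CD4SP, beside 7.92% of all tested genes. Capg, which caps filament ends, was listed at 887, 899 and 906 TPM in CD4SP and at 271, 268 and 236 TPM in CD8SP. The log2 difference of Capg was 1.80 (SE 0.102, adjusted p = 2.3e-05), with no overlap and little spread on either side. Gsn, which encodes the severing protein gelsolin, was listed at 14.1 to 19.4 TPM against 4.89 to 6.38 TPM (log2 difference 1.41, adjusted p = 0.0028). Of the subunits of the capping protein, Capza1 (0.29, adjusted p = 0.334) and Capzb (0.051, adjusted p = 0.776) did not pass, and Capza2 passed at the adjusted p alone (0.50, adjusted p = 0.0371).

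Of the other actins only Actg2, known from smooth muscle of the gut, was high enough to be tested. It was listed at 31.4, 57.7 and 55.7 TPM in CD4SP and at 3.78, 6.15 and 0.664 TPM in CD8SP, with a log2 difference of 3.63 (SE 0.499, adjusted p = 0.0021). The muscle actins Acta1, Acta2 and Actc1 were each listed under 1 TPM in all libraries. No annotated transcript matched that of Actg2 at 95% identity over 200 bases.

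Of the Arp2/3 complex and its relatives, 1 of 9 was called higher in CD4SP, near the 7.92% of all tested genes. Arpc2 (1006 ± 164 TPM against 836 ± 38.7 TPM, SD, n = 3 each), Actr3 and Arpc5 were the most abundant, and their log2 differences of 0.25, 0.27 and 0.23 had adjusted p-values of 0.21, 0.235 and 0.342. Actr3b, a low-abundance relative of Actr3, was called (3.06 to 4.35 TPM against 0 to 0.28 TPM, log2 difference 2.098, adjusted p = 0.0017). Actr2 passed at the adjusted p alone (178 ± 16.3 against 102 ± 9.87 TPM, SD, n = 3 each; log2 difference 0.80, adjusted p = 0.0043). Arpc3 was listed at 11.5 to 29.8 TPM over the 6 libraries, much under the other subunits of the complex.

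Among factors that switch on the Arp2/3 complex and the filament-elongating formins, 4 of 17 were called higher in CD4SP, beside 7.92% of all tested genes. These were Fmnl3, a formin (log2 difference 1.37, adjusted p = 0.0027), Cttn, which encodes cortactin (2.05, adjusted p = 0.0031), Abi2, part of the WAVE complex (1.14, adjusted p = 0.0077), and Wasl, which encodes N-WASP (1.04, adjusted p = 0.0206). Abi2 and Wasl were not called under median-of-ratios rescaling, quantile normalization or length correction. Cttn was listed at 4.09 to 6.11 TPM in CD4SP and at 0 to 0.74 TPM in CD8SP, and has a pseudogene copy 96.2% identical over 842 bases. Brk1 (0.21, adjusted p = 0.181) and Wipf1 (0.23, adjusted p = 0.404), among the most abundant of the list, did not pass, while Abi1 (0.59, adjusted p = 0.0335) passed at the adjusted p alone.

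The remaining calls were single genes of their lists, beside 7.92% of all tested genes called higher in CD4SP. Lmna, which encodes the nuclear lamins A and C, was listed at 5.997 to 7.46 TPM against 0.362 to 1.44 TPM (log2 difference 2.04, adjusted p = 0.0023, 1 of 5 tested intermediate filament genes), and the lamin genes Lmnb1 (0.13, adjusted p = 0.783) and Lmnb2 (-0.17, adjusted p = 0.538) and the linker gene Plec (0.41, adjusted p = 0.101) did not pass. Vcl, which encodes vinculin, was listed at 4.68 to 9.61 TPM against 2.46 to 3.10 TPM (1.04, adjusted p = 0.032, 1 of 5 membrane linkers) and was called in 4 of 17 settings, and the membrane linkers Msn (0.43, adjusted p = 0.0703), Ezr (0.26, adjusted p = 0.287) and Rdx (0.43, adjusted p = 0.175) did not pass. Vcl shares 2094 bases of transcript with Ap3m1, so its level is uncertain in that respect.

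No gene was called among the 5 other coronins, the 6 tested monomer-binding genes, the 11 of the cofilin cycle, the 8 bundlers and crosslinkers or the 10 myosins and tropomyosins, beside 9.73% of all tested genes called in either direction, which in lists of this size is at most about 1 gene. At the adjusted p alone, beside 17.6% of all tested genes, those higher in CD4SP were 1 of the 5 coronins, 1 of the 6 monomer-binding genes, 3 of the 11 of the cofilin cycle, 2 of the 8 bundlers and crosslinkers and 1 of the 10 myosins and tropomyosins. Of the 3 most abundant coronins, Coro7 passed (0.70, adjusted p = 0.0128) and Coro1b (0.26, adjusted p = 0.213) and Coro1c (0.24, adjusted p = 0.324) did not. Of the monomer-binding genes, Twf1, a twinfilin, passed (0.55, adjusted p = 0.0442), and the other twinfilin Twf2 (0.40, adjusted p = 0.155) and the thymosin gene Tmsb15b1 (-0.043, adjusted p = 0.921) did not. Of the cofilin cycle, Wdr1 (0.21, adjusted p = 0.358), Gmfg (0.34, adjusted p = 0.106) and Cotl1 (-0.27, adjusted p = 0.162) did not pass. The same held for the crosslinkers Flna, which encodes filamin A (0.45, adjusted p = 0.0548), Tagln2 (0.36, adjusted p = 0.0548) and Actn4 (0.37, adjusted p = 0.13). Among the myosins the light chain gene Myl12a passed (0.37, adjusted p = 0.0449), and Myl12b (0.49, adjusted p = 0.0855) and Myl6 (0.037, adjusted p = 0.874) did not; Myl12a and Myl12b are 96.8% identical over 647 bases, so how reads were divided between them is uncertain.

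**Figure D4:**
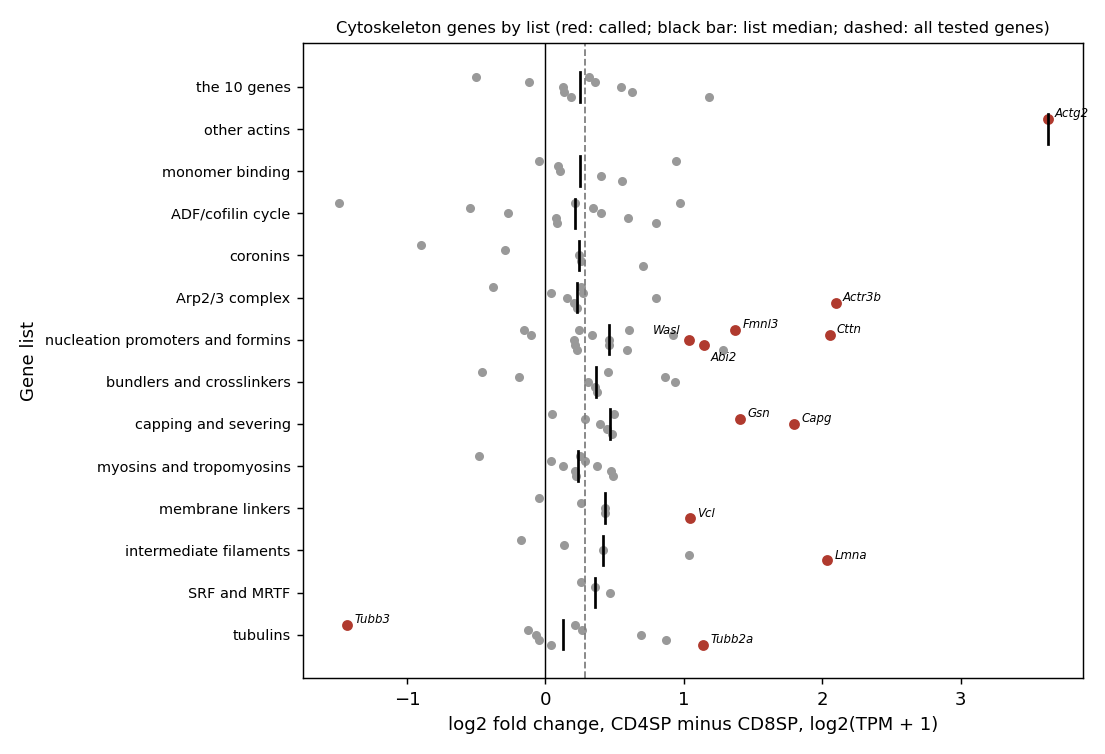
Log2 difference (CD4SP minus CD8SP, log2(TPM + 1)) of each tested gene in the 10-gene set and in the lists of other cytoskeleton genes described here. Red points were called, black bars are list medians and the dashed line is the median of all tested genes (0.28). Called genes lie to the right except the tubulin Tubb3 (-1.43), and Actg2 (3.63) lies farthest out.

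Of the 10 called genes of the other lists, 7 (Actg2, Actr3b, Capg, Cttn, Fmnl3, Gsn and Lmna) were called in every one of the 17 or 18 settings in which they were tested and the fold threshold was kept. Abi2 was called in 15 of 18 settings, Wasl in 9 of 18 settings, and Vcl in 4 of 17. The summed myeloid markers were at 17.1 to 31.3 TPM in CD4SP and 3.64 to 9.09 TPM in CD8SP, nearly all from Lyz2. Of that list 6 of 7 genes were in the table, S100a8 and S100a9 were at 0 in all libraries, and Itgam, Cd14 and Csf1r were each under 1 TPM. Summed endothelial markers, mostly Pecam1, were at 2.59 to 6.68 TPM against 1.45 to 3.21 TPM. Fibroblast markers summed to at most 0.818 TPM, with Col1a1 and Col3a1 at 0. NK markers, all from Klrb1c, ran the other way, at 0.68 to 1.82 TPM in CD4SP and 5.2 to 9.1 TPM in CD8SP. Summed B cell markers were at 16.0 to 22.3 TPM against 21.3 to 24.5 TPM. The part of such cells in the higher levels of Capg, Gsn, Lmna or Vim in CD4SP, or of Myo1f in CD8SP, was not tested.

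For scale, the microtubule genes and the usual reference transcripts were listed beside the actin genes. Of 10 tubulin genes 2 were called, beside 9.73% of all tested genes: Tubb2a higher in CD4SP (1.14, adjusted p = 0.0087) and Tubb3 higher in CD8SP (-1.43, adjusted p = 0.0344), both under 20 TPM and Tubb2a 96.4% identical to Tubb2b over 1350 bases, and the abundant Tuba1b (-0.045, adjusted p = 0.82), Tubb4b (0.26, adjusted p = 0.12) and Tubb5 (-0.13, adjusted p = 0.497) did not pass. Of the reference transcripts, B2m was 0.52 higher in CD4SP (adjusted p = 0.0067), which passed at the adjusted p alone and not the 2-fold limit, and Gapdh (-0.15, adjusted p = 0.344), Ppia (-0.024, adjusted p = 0.865) and Eef1a1 (-0.32, adjusted p = 0.193) did not pass.

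Serum response factor, with its actin-sensing partners of the MRTF family, binds the CArG box and is known to drive actin genes. Srf was listed at 17.4 to 27.7 TPM over the 6 libraries (log2 difference 0.26, adjusted p = 0.34), and Mkl1 and Mkl2, the MRTF genes as named in the table, had log2 differences of 0.36 (adjusted p = 0.117) and 0.46 (adjusted p = 0.284). RefSeq promoter windows on GRCm38.p6, from 250 bases before to 50 after a start site, were matched for 9 of the 10 genes, all but Actb. The consensus CArG box, searched on both strands, occurred in 1 of the 13 windows, that of Actg1, and in 535 of all 32851 windows (1.63%). It lies 90 bases before the start site, within chr11:120348566-120348595 on the minus strand, and is printed in capitals because it is the 1 match among the 9 genes searched.
Actg1 promoter: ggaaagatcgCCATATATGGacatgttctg

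A match describes the letters of the window only. Actg1 itself did not pass the test between the populations.

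Genes with a profile like that of the 10 were sought by the Pearson correlation with their mean log2 level over the 6 libraries, which was 10.095, 9.999 and 10.08 in CD4SP and 9.86, 9.85 and 9.61 in CD8SP. The 5 closest tested genes were Tmem109 (r = 0.998), Xab2 (r = 0.997), Ptpmt1, Cass4 and Foxk2 (each r = 0.996). Tmem109 was listed at 48.0 to 56.0 TPM in CD4SP and at 20.7 to 36.3 TPM in CD8SP, and Cass4, a scaffold protein of the Cas family, at 3.54 to 6.39 TPM against 0 to 1.56 TPM. The 6 points share 2 populations and a library scaling each, and the genes were picked from 10476 for their likeness, so these values are descriptive.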

How the data were processed

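PolyA RNA of 6 aliquots of 1000 sorted spleen iT cells was amplified with the Discover-sc WTA Kit V2, and libraries were made with the TruePrep DNA Library Prep Kit V2. The submitters' processing notes name bcl2fastq, HISAT2, SAMtools, StringTie and mm10, and TPM were estimated by the authors with StringTie and deposited as 1 table. The annotation, strand setting and treatment of duplicate and multi-mapping reads are not given in the sources used here. The table holds 23420 rows, of which 9818 are 0 throughout and 27 carry names turned into dates. TPM hold no depth, so no counting error, floor or count test could be given, and with 1000 cells per library an exact 0 is only "listed at 0".

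Genes with at least 1 TPM in 3 libraries (10476) were tested on log2(TPM + 1) with limma 3.58.1 (R 4.3.3, trended empirical Bayes, groups from the labels, no covariate), with Benjamini-Hochberg adjustment over all of them. Calls needed an adjusted p under 0.05 and over 2-fold. The study used this criterion for iT cells against natural T cells, not for CD4SP against CD8SP iT cells. The study's DESeq2 needs counts and was not used here. Within-library ratios were compared by exact permutation. Sequences and positions came from GENCODE M21 and RefSeq, and copies were sought with blastn 2.17.0. The 10 genes and the lists were chosen with earlier results of these data known. Genes named were the 10, the 3 most abundant tested genes and every called gene of each other list, and the 5 most like the mean profile; other genes named (the capping subunit Capza2, Actr2, Arpc3, Pfn2, Limk2, Myo1f, Gapdh, Acta1, Acta2 and Actc1) were chosen after their values were seen. In all, 18 alternatives were planned and 1, the length correction, was added after seeing the data. One list of the cytoskeleton genes and one detail of the sort are not reported here, though the list's genes stay in the counts over all lists.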

Additional observations from a re-analysis of the deposited data

How the results depend on the processing

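No depth is known for these TPM, 3 libraries against 3 limit every comparison, and TPM as deposited put the median tested gene at 0.28 in favour of CD4SP, against 0.00016 when rescaled by median of ratios, -0.015 when quantile-normalized, 0.14 without the ribosomal protein genes, 0.17 when scaled without the 50 most abundant genes and -0.023 after length correction. Of the 10 genes, 8 had a positive log2 difference as deposited, 7 after quantile normalization and when scaled without the 50 most abundant genes, 6 with ribosomal protein genes left out, and 5 under median-of-ratios rescaling and length correction. The cause of these shifts was not tested.

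Signs turned as follows. Under median-of-ratios rescaling the log2 difference was -0.18 for Coro1a, -0.12 for Lcp1 and -0.18 for Arpc1b. With ribosomal protein genes left out it was -0.027 for Coro1a and -0.032 for Arpc1b. After length correction it was -0.14 for Coro1a, -0.17 for Lcp1 and -0.13 for Arpc1b. Arpc1b also stood at -0.10 after quantile normalization and at -0.0014 when scaled without the 50 most abundant genes. The log2 difference of the ratio of Arpc1b to Arpc1a ran from -0.18 to 0.23 when single libraries were left out. No other log2 difference of the 10 genes and neither of the other ratios changed sign in any setting.

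The count of called genes among the 10 was 0 in each setting except the adjusted p alone (2, Actb and Vim) and the replicate block (1, Pfn1, adjusted p = 0.0218); leaving out single libraries gave 0 each time. The adjusted p of Actb was under 0.05 in 16 of 18 settings and that of Vim in 9 of 18. Among the other cytoskeleton genes 29 passed the adjusted p alone, and otherwise 7 to 14 were called. Leaving out single libraries gave 8 to 13. The difference in the share of TPM was 0.528 to 0.627 percentage points when single libraries were left out. Without ribosomal protein genes it was 0.451 points of a smaller total, and the ratio of the mean shares was 1.15 in place of 1.28.

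The labels do not tie same-numbered libraries to one mouse, and their deviations from the population means correlated at 0.052, -0.017 and 0.089, so the numbers were not taken as pairs. The replicate block moved the count of all called genes from 1019 to 997, and under it Limk2 was called higher in CD8SP. The smallest p of a paired permutation of the ratios is 0.25, which the ratio of Tmsb4x to Tmsb10 reached.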
